A study of Homo sapiens with 20 samples.

Results

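Distal hypoxia response elements without an E-box were defined by sequence and position alone. The peaks of 4 lists were merged into 8280 regions, and a region was taken when its summit lay more than 1 kb from every annotated transcript start and when the 201 bases centred on the summit held the 5-base core of the hypoxia response element (HRE; ACGTG or GCGTG on either strand) but not the palindromic E-box CACGTG. This gave 1611 of the 8280 regions, or 35.4% (95% interval 34.0 to 36.8) of the 4548 distal regions. The core is short, and 22.2% (20.8 to 23.7) of 3222 windows of the same length placed 2 kb to either side of these regions met the sequence rule too. The name therefore describes a sequence, and 469 of the 1611 regions had no HIF2α peak in either HIF2α list.

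The lists come from CUT&RUN, in which a nuclease tethered by an antibody releases the chromatin around a bound factor, in A498 cells, an established renal cell adenocarcinoma line. The cells carried lentiviral PLKO.1 constructs, kept under puromycin, encoding either shCNT, a scrambled control hairpin, or shBMAL1, a hairpin against BMAL1. Both groups are selected populations in the same line and medium, with no low oxygen treatment in the labels. An antibody to BMAL1 or HIF2α was used in 4 libraries of each shRNA, and isotype IgG in 2 of each, but 1 peak list per antibody and shRNA was analysed here and whether it pools replicates was not stated. There is hence no replicate list, and every interval below is a 95% interval for counting error over regions (Wilson for a share, Newcombe for a difference of shares), not a measure of spread between cultures.

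HIF2α (encoded by EPAS1) and BMAL1 are basic helix-loop-helix PAS proteins that bind DNA as dimers. HIF2α with ARNT recognises the HRE and switches on genes for glucose use, angiogenesis and survival at low oxygen, and it is stabilised without hypoxia in clear cell renal carcinoma that has lost VHL. BMAL1 with CLOCK recognises the E-box and drives the circadian clock. The HRE core and the E-box share the letters CGTG. The core GCGTG differs from the E-box in itself, and for ACGTG the base before the core separates them.

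The sequences that follow show this base in regions chosen for the strength of their peaks or for their gene. Each stretch of 45 bases is written on the strand of its core, from the GRCh37 (hg19) reference, with the core and the base before it in capitals. The first set had HIF2α peaks in both lists.
TGFA, 42.7 kb upstream, chr2:70823934-70823978, minus strand: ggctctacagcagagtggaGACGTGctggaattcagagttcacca
DAPK1, 125 kb upstream, chr9:89987522-89987566, plus strand: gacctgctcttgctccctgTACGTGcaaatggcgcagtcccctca
NMT1 intron, chr17:43050378-43050422, minus strand: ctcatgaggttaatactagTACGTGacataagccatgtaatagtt
CREB1, 135 kb upstream, chr2:208259631-208259675, plus strand: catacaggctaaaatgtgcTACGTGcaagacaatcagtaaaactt
TLR4, 624 kb downstream, chr9:121094094-121094138, plus strand: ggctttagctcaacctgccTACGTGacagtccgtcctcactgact
PKM intron, chr15:72519197-72519241, plus strand: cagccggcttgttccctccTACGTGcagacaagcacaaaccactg
EGLN3 intron, chr14:34504965-34505009, plus strand: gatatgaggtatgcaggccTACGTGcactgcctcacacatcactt
P4HA2 intron, chr5:131601478-131601522, minus strand: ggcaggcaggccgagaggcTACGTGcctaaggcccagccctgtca
FOSL2 intron, chr2:28632400-28632444, minus strand: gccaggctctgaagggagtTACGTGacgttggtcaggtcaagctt
ANGPTL4, 1.08 kb upstream, chr19:8427007-8427051, minus strand: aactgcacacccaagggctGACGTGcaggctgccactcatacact

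The second set had peaks in 1 HIF2α list and in no other list. SIK3, ANO6 and TANC2 were in the shCNT list, and TMEM209 and PDGFB in the shBMAL1 list.
SIK3 intron, chr11:116882051-116882095, minus strand: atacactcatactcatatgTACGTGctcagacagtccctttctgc
ANO6 intron, chr12:45626916-45626960, minus strand: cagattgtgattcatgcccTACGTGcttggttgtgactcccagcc
TANC2, 70.0 kb upstream, chr17:60973668-60973712, plus strand: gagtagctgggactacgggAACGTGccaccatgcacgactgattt
TMEM209 intron, chr7:129820826-129820870, plus strand: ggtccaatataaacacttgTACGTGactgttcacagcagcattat
PDGFB, 7.29 kb upstream, chr22:39648309-39648353, plus strand: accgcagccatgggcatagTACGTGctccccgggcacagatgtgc

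The third set had BMAL1 peaks and no HIF2α peak.
PRR36 coding exon, chr19:7937041-7937085, plus strand: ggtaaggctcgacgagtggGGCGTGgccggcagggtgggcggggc
TRPM2 intron, chr21:45848327-45848371, plus strand: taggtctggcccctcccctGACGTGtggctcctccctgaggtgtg
ABR intron, chr17:1106568-1106612, plus strand: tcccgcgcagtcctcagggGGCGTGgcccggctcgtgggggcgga

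These stretches were picked from the named regions to show the base before the core, thymine at DAPK1 and SIK3, adenine at TANC2 and guanine at TGFA and TRPM2, and the mix within a set is not the share in its class. Where a window held several cores, one with thymine before it is printed if there was any. The 201-base window upstream of AGAP1 is shown whole because it held 3 cores, and its peak was in the shBMAL1 HIF2α list alone. It is written on the plus strand, so that the cores on the minus strand read as their reverse complement, at chr2:236303077-236303277.
AGAP1 window: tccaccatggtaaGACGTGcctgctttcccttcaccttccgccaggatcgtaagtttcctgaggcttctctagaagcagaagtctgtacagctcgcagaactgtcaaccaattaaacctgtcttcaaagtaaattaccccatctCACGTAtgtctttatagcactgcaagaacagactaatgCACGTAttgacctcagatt

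The distal HRE regions were weighted towards HIF2α. A HIF2α peak was present at 682 of 1611 (42.3%, 39.9 to 44.8) under shCNT and at 933 (57.9%, 55.5 to 60.3) under shBMAL1. A BMAL1 peak was present at 309 (19.2%, 17.3 to 21.2) under shCNT and at 661 (41.0%, 38.7 to 43.5) in the list labelled shBMAL1. Over all 8280 merged regions the shares were 28.3% for shCNT HIF2α, 38.4% for shBMAL1 HIF2α, 28.3% for shCNT BMAL1 and 51.3% for shBMAL1 BMAL1. In HRE regions without E-box within 1 kb of a start they were 39.2%, 43.2%, 33.1% and 47.7% in the same order. Distal regions with neither an HRE core nor an E-box (2727 regions) were in the shCNT HIF2α list at 14.7% and in the shBMAL1 HIF2α list at 30.2%, so the distal HRE regions were higher by 27.7 percentage points in both (24.9 to 30.4 and 24.7 to 30.6). In the BMAL1 lists the distal HRE regions were lower than those regions, with a difference of −4.84 points (−7.31 to −2.30) under shCNT and of −18.0 (−21.0 to −14.9) under shBMAL1. These BMAL1 differences are not a separate result, since every merged region without a HIF2α peak must have a BMAL1 peak. Such regions were 61.1% of the distal regions with neither motif and 29.1% of the distal HRE regions. Read by list, these regions made up 59.6% of the distal regions with a shCNT HIF2α peak and 50.8% of those with a shBMAL1 HIF2α peak, against 29.3% and 28.1% for BMAL1.

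**Figure D1:**
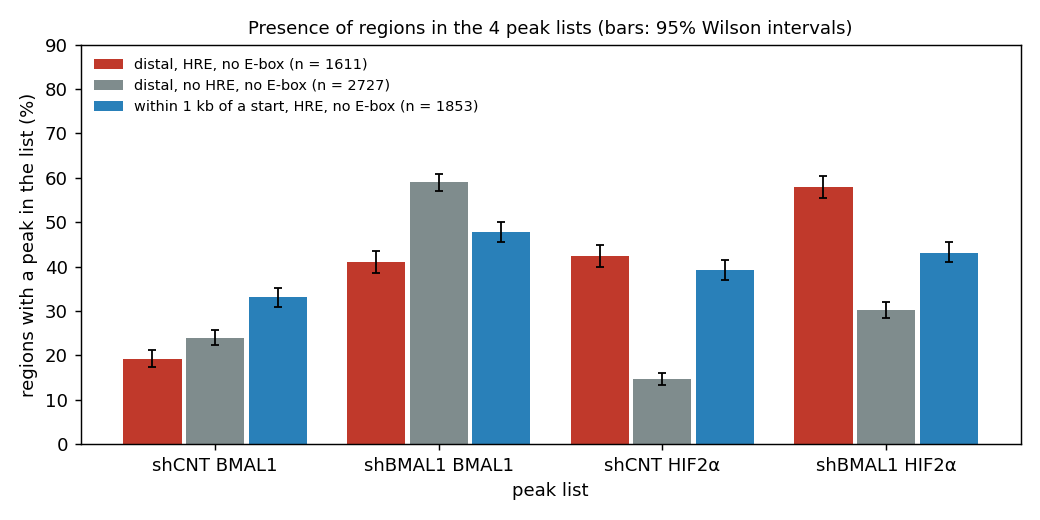
Share of regions (%) with a peak in each of the 4 lists, for distal HRE regions without E-box, distal regions with neither motif, and HRE regions without E-box within 1 kb of a start. Bars are shares and whiskers 95% Wilson intervals. The distal HRE regions stand at 42.3% and 57.9% in the HIF2α lists and at 19.2% and 41.0% in the BMAL1 lists.

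More peaks were called in the lists labelled shBMAL1 (4261 for BMAL1 and 3199 for HIF2α) than in those labelled shCNT (2350 and 2361). The lists labelled shBMAL1 had the lower genome-wide background, at 0.0839 and 0.109 fragments against 0.168 and 0.209. Their lowest pileup was 3, against 4 in the lists labelled shCNT. The median pileup, which is the number of fragments over a summit as recovered from the deposited fold and p-value, was 6 and 8 under shCNT and 5 and 5 under shBMAL1. The larger BMAL1 list in cells labelled as depleted of BMAL1 goes against that label, so that no direction of BMAL1 binding was read from it. When every list was reduced to its 2350 strongest peaks, the share of distal HRE regions in the shBMAL1 BMAL1 list fell to 27.5% and that in the shCNT HIF2α list was 50.9%.

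Presence in a single list was found at 913 regions (56.7%, 54.2 to 59.1), against 66.6% of all merged regions and 70.3% of all distal regions. A further 485 were in 2 lists, 150 in 3 and 63 in 4. The HIF2α lists alone held 805 regions, the BMAL1 lists alone held 469, and 337 were in lists of both factors. Presence in both HIF2α lists and in neither BMAL1 list was found at 307 regions (19.1%, 17.2 to 21.0), against 9.05% of all merged regions and 3.01% of the distal regions with neither motif. HRE regions without E-box near a start had this pattern at 14.4% (12.8 to 16.0). Presence in all 4 lists was found at 63 (3.91%, 3.07 to 4.97), against 2.9% of all merged regions and 4.70% of HRE regions without E-box near a start. The shBMAL1 HIF2α list alone held 331 regions (20.5%, against 16% of all merged regions) and the shCNT HIF2α list alone 167 (10.4% against 8.83%). The shBMAL1 BMAL1 list alone held 325 (20.2% against 30.8%), the shCNT BMAL1 list alone 90 (5.59% against 11%) and both BMAL1 lists alone 54 (3.35% against 7.27%).

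The HIF2α peaks of these regions were found in the other HIF2α list more often than those of distal regions with neither motif, whichever list was taken first. Of the 682 regions with a shCNT HIF2α peak, 473 (69.4%, 65.8 to 72.7) also had one under shBMAL1, against 55.8% over all merged regions. The share was 41.0% (36.3 to 45.9) in distal regions with neither motif, a difference of 28.4 points (22.3 to 34.1), and 60.9% (57.3 to 64.4) in HRE regions without E-box near a start, a difference of 8.42 points (3.44 to 13.3). The BMAL1 peaks were found again less often, at 164 of 309 (53.1%, 47.5 to 58.6) against 47.7% over all merged regions and 42.6% in distal regions with neither motif (difference 10.5, 3.73 to 17.1). Taken from the shBMAL1 lists, 473 of 933 HIF2α regions (50.7%, 47.5 to 53.9) also had a shCNT HIF2α peak, against 41.1% over all merged regions and 19.9% in distal regions with neither motif (difference 30.8, 26.5 to 34.9). HRE regions near a start then stood higher, at 55.4%, with a difference of −4.68 (−9.36 to 0.035), so that the order of distal and near HRE regions depended on the list taken first. Of the 661 regions of the shBMAL1 BMAL1 list, 164 (24.8%, 21.7 to 28.2) had a shCNT BMAL1 peak, against 26.3% over all merged regions and 17.3% in distal regions with neither motif (difference 7.47, 3.79 to 11.3). The excess over all merged regions was thus seen for BMAL1 only from the shCNT list. With windows of 50 bp to either side the HIF2α difference of 28.4 points became 11.1 (5.11 to 16.9), where the regions counted as lacking the core include those with a core farther out.

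Peak strength moved with these shares. When the shCNT HIF2α peaks were divided into quartiles of their −log10 p within the whole list, the distal HRE regions found again were 35 of 110 in the weakest quartile (31.8%), 68 of 133 in the second (51.1%), 120 of 174 in the third (69.0%) and 250 of 265 in the strongest (94.3%, 90.9 to 96.5). Distal regions with neither motif gave 22.1%, 30.6%, 65.9% and 84.4%. The difference within quartiles was 9.67 points (−1.15 to 20.6), 20.5 (8.45 to 31.8), 3.08 (−8.61 to 15.4) and 9.90 (1.35 to 23.3), so it excluded 0 in the second and the strongest quartile. The distal HRE regions were also the stronger HIF2α peaks, with 265 of 682 in the strongest quartile against 45 of the 400 with neither motif.

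**Figure D2:**
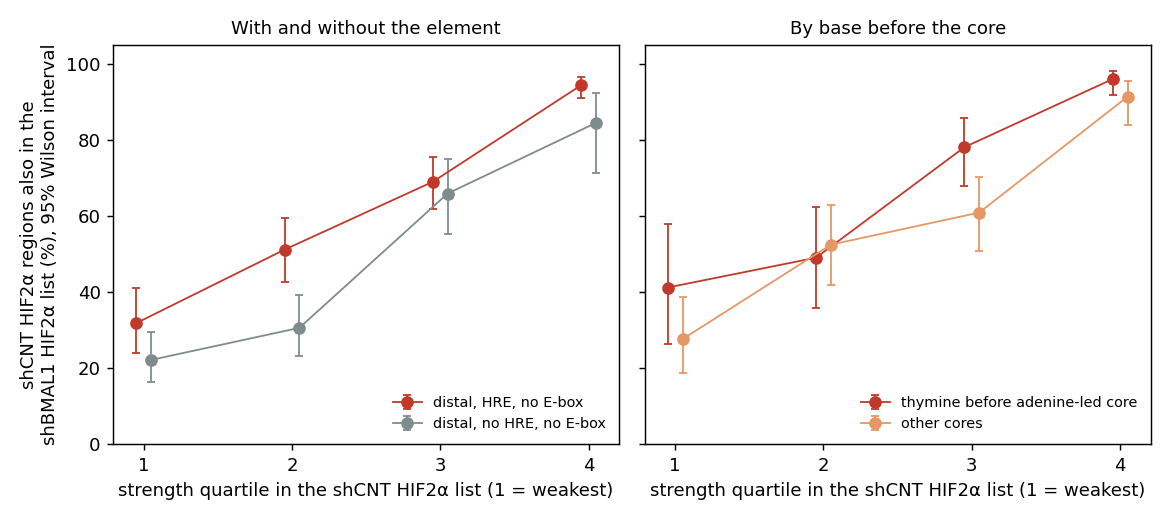
Share (%) of shCNT HIF2α regions that also had a shBMAL1 HIF2α peak, by strength quartile in the shCNT HIF2α list, with 95% Wilson intervals. On the left, distal HRE regions run from 31.8% to 94.3% and distal regions with neither motif from 22.1% to 84.4%. On the right, the distal HRE regions are divided by thymine before an adenine-led core (41.2% to 96.0%) or other cores (27.6% to 91.3%).

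The 473 regions in both HIF2α lists were compared by rank, since fragment numbers depend on depth. Their median percentile by −log10 p was 76.3 in the shCNT list and 82.6 in the shBMAL1 list, with median pileups of 11 and 10. The percentile was higher under shBMAL1 at 298 regions and lower at 175. The median change was 3.76 percentile points. The lists differ in length and depth, and the part of these in the ranks was not tested.

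**Figure D3:**
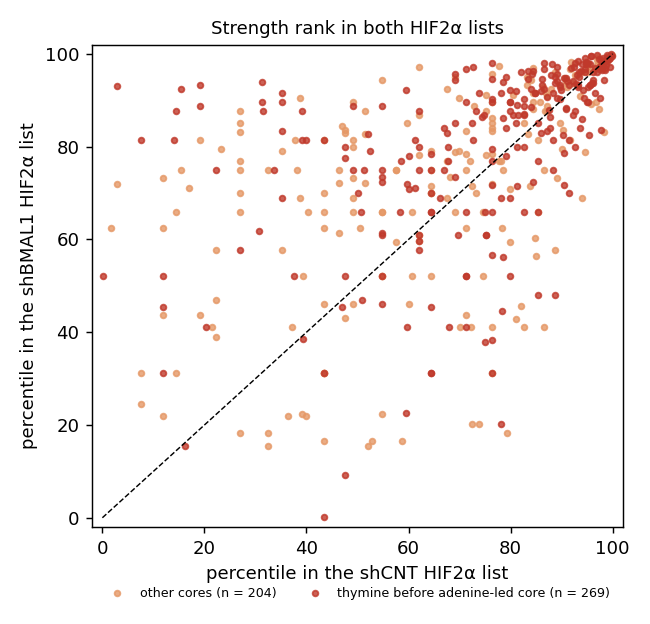
Percentile of −log10 p of the 473 distal HRE regions present in both HIF2α lists, in the shCNT list (x axis) and the shBMAL1 list (y axis), each point a region and the dashed line equality. Points lie above the line for 298 regions and below it for 175, and the 269 regions with thymine before an adenine-led core gather at the upper right.

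Co-occupancy by BMAL1 was less frequent at these HIF2α sites than elsewhere under shCNT. A shCNT BMAL1 peak was present at 119 of the 682 shCNT HIF2α regions (17.4%, 14.8 to 20.5), against 25.6% over all merged regions, 23.0% in distal regions with neither motif (difference −5.55, −10.7 to −0.65) and 28.1% in HRE regions near a start (difference −10.6, −14.9 to −6.25). Under shBMAL1 the share was 253 of 933 (27.1%, 24.4 to 30.1) against 28.6% over all merged regions, and the difference from distal regions with neither motif was 0.05 points (−4.12 to 4.20). Seen from BMAL1, 119 of 309 shCNT BMAL1 regions (38.5%) had a HIF2α peak, against 14.0% of distal BMAL1 regions with neither motif, and under shBMAL1 the shares were 38.3% and 13.9%.

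The study asked whether HIF2α occupancy depends on BMAL1. In another clear cell renal carcinoma line depleted of BMAL1, it described HIF2α as missing from part of its sites and kept at others. For A498 cells it reported a similar loss. Its profiles used spike-in normalised signal, which was not examined here. The shares below rest on presence in the peak lists alone. A shCNT BMAL1 peak was present at 29 of the 209 regions whose HIF2α peak was not found under shBMAL1 (13.9%) and at 90 of the 473 where it was (19.0%), a difference of −5.15 points (−10.7 to 1.12) whose interval includes 0. Put the other way, the HIF2α peak was found again at 75.6% of regions with and 68.0% of regions without a BMAL1 peak, a difference of 7.60 (−1.62 to 15.5). Within strength quartiles that difference ran from −4.48 to 9.54 points, and each interval included 0. Over 12 alternatives the difference of −5.15 had an interval below 0 in 4 and above 0 in 0. The 4 were −7.50 (−13.3 to −0.16) with ACGTG alone as the core, −6.82 (−12.5 to −0.25) when CACGTT also removed a region, −6.27 (−11.7 to −0.09) with a pileup of at least 5, and −5.43 (−9.94 to −0.29) when a peak had to cover the summit. It became 0.35 (−5.21 to 7.36) when all lists were limited to peaks with −log10 p of at least 8.

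The base before the core separated the presence classes, and the rule had not used it except that cytosine before ACGTG makes the E-box. Thymine before the adenine-led core (TACGTG) was present at 520 of the 1611 regions (32.3%, 30.0 to 34.6). Among regions in both HIF2α lists alone it was present at 191 of 307 (62.2%, 56.7 to 67.5). It was present at 67 of 167 regions in the shCNT HIF2α list alone (40.1%, 33.0 to 47.7) and at 127 of 331 in the shBMAL1 HIF2α list alone (38.4%, 33.3 to 43.7), a difference of 1.75 points (−7.16 to 10.9). In the regions of all 4 lists it was present at 24 of 63 (38.1%, 27.1 to 50.4). It was rare in regions of BMAL1 lists alone, at 3 of 90 for shCNT (3.33%), 29 of 325 for shBMAL1 (8.92%) and 3 of 54 for both (5.56%). In the 715 flanking windows that met the sequence rule, the form was present at 8.81% (6.95 to 11.1). The difference between both HIF2α lists alone and no HIF2α list was 54.8 points (48.6 to 60.4), and that between both HIF2α lists alone and all 4 lists was 24.1 (10.6 to 36.3). Over windows of this length TACGTG was present in 10.1% of all merged regions and 11.9% of all distal regions.

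**Figure D4:**
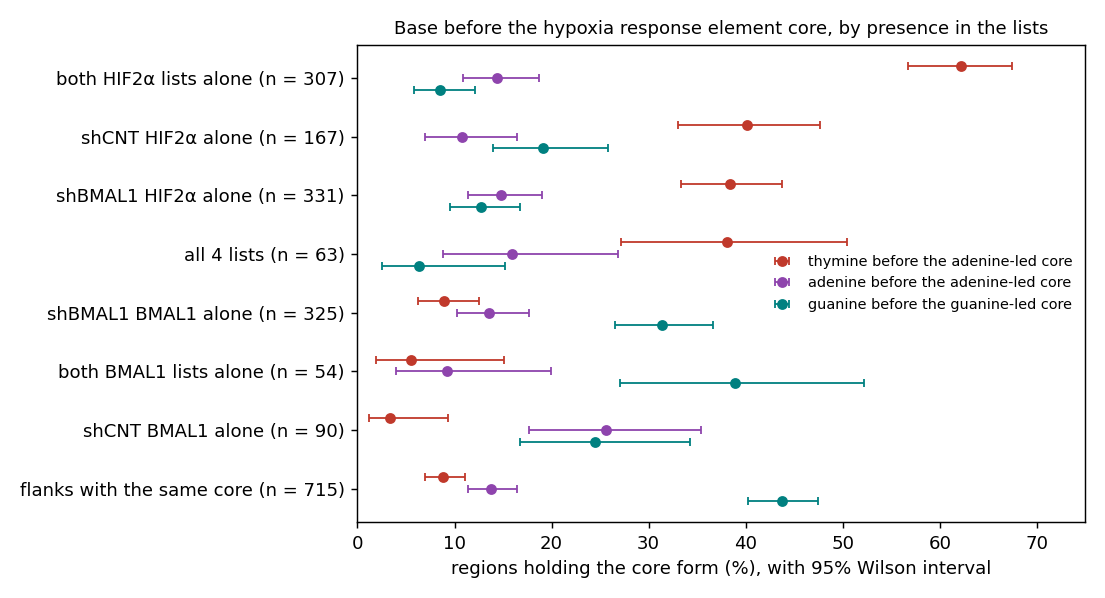
Share (%) of distal HRE regions that held each of 3 core forms, by presence in the lists, with 95% Wilson intervals and flanking windows that met the sequence rule in the lowest row. Thymine before the adenine-led core stands at 62.2% in both HIF2α lists alone and at 3.33% to 8.92% in the classes of BMAL1 lists alone, and guanine before the guanine-led core stands at 8.47% in the former.

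Other forms ran differently. Guanine before the guanine-led core (GGCGTG), the form in all 4 cores of a window upstream of EEF2K, was present at 30.9% of regions with no HIF2α peak and at 8.47% of regions in both HIF2α lists alone, a difference of 22.4 points (17.0 to 27.5). The flanking windows held it at 43.8%, above both. Adenine before the adenine-led core (AACGTG), which read on the other strand is CACGTT, a variant of the E-box, was present at 23 of 90 regions in the shCNT BMAL1 list alone (25.6%, 17.7 to 35.4), at 44 of 325 in the shBMAL1 BMAL1 list alone (13.5%, 10.2 to 17.7) and at 13.7% of flanking windows. The difference between the first and the second of these was 12.0 points (3.11 to 22.4), and 11.2 (2.35 to 21.6) without the region on the BMAL1 exon. In both BMAL1 lists alone AACGTG was present at 5 of 54 regions (9.26%, 4.02 to 19.9), below the flanking windows. In both HIF2α lists alone it was present at 14.3% (10.9 to 18.7). These contrasts of core forms were chosen after the shares had been seen.

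The same form went with the strength and recurrence of HIF2α peaks. In the shCNT HIF2α list the median percentile was 75.7 at the 340 TACGTG regions and 53.8 at the 342 others, with median pileups of 11 and 8. In the shBMAL1 HIF2α list it was 78.6 at 414 and 52.1 at 519, with median pileups of 9 and 6. In the BMAL1 lists no such gap was seen, with 43.1 against 48.2 under shCNT and 48.5 for both under shBMAL1. By quartile of the shCNT HIF2α list, TACGTG was present at 30.9%, 38.3%, 47.1% and 65.3% of regions from the weakest to the strongest. HIF2α peaks with TACGTG were found again under shBMAL1 at 269 of 340 (79.1%) and those with other cores at 204 of 342 (59.6%), a difference of 19.5 points (12.6 to 26.1). Within quartiles the difference was 13.5, −3.42, 17.2 and 4.65 points, and its interval excluded 0 in the third alone. When only adenine-led cores defined the regions, the difference was 7.76 (0.38 to 15.4), and with windows of 50 bp to either side it was 9.87 (0.37 to 18.9). TACGTG regions with a HIF2α peak had a BMAL1 peak less often than the others, by −10.7 points (−16.4 to −5.07) under shCNT, at 12.1% against 22.8%, and by −14.0 (−19.5 to −8.35) under shBMAL1, at 19.3% against 33.3%. Among regions in both HIF2α lists, the distal ones held TACGTG at 56.9% and the HRE regions near a start at 35.7%, a difference of 21.2 points (14.8 to 27.4).

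The number and place of the cores differed less. A single core was found in 1242 regions, 2 in 292, 3 in 56, and 4 to 6 in 21. At least 2 cores were present in 27.3% of regions in both HIF2α lists and in 17.9% of those in neither, a difference of 9.36 points (4.03 to 14.6). The most cores, 6, were found in introns of ARID3A and CIC, whose pileups were 8 in each HIF2α list and 6 in the shCNT HIF2α list alone. The nearest core lay a median of 43 bp from the summit. Regions in both HIF2α lists had a core within 25 bp of the summit less often than regions with no HIF2α peak, at 26.6% against 36.9% (difference −10.2, −16.1 to −4.31). Of their 647 cores, 16.5% lay within 20 bp of the summit and 25.5% between 60 and 80 bp, against 27.2% and 20.2% of the 578 cores in regions with no HIF2α peak. In the strongest HIF2α regions printed above, the core lay 49 bp from the summit at TGFA, 62 at DAPK1, 57 at NMT1, 58 at CREB1 and 61 at TLR4.

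**Figure D5:**
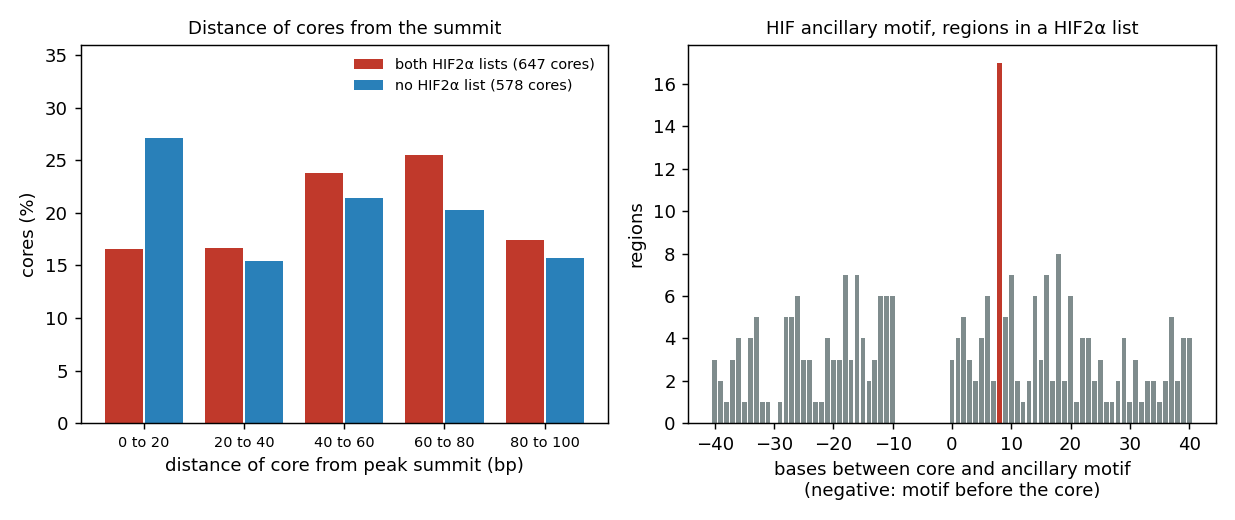
Left, distance of HRE cores from the region summit in bins of 20 bp, as a share (%) of the cores in regions of both HIF2α lists or of no HIF2α list. The bin nearest the summit holds 16.5% and 27.2%. Right, number of regions in a HIF2α list with the ancillary motif at each spacing from a core, where a spacing of 8 bases after the core was found in 17 regions and no other spacing in more than 8.

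A second short motif, CACAG, is known as the HIF ancillary sequence where it follows an HRE. Anywhere in the window it was present in 57.5% of the distal HRE regions, 58.2% of all distal regions and 48.0% of flanking windows. It did not separate the classes, at 58.1% of regions with and 56.3% of regions without a HIF2α peak. Exactly 8 bases separated a core from a following CACAG in 17 of the 1142 regions with a HIF2α peak, while the other 71 spacings of up to 40 bases had a median of 3 regions and a maximum of 8. In the 473 regions of both HIF2α lists this spacing was found in 11, against a median of 1 and a maximum of 5. In the 469 regions without a HIF2α peak it was found in none, where the other spacings had a median of 1 and a maximum of 4. The spacing was singled out after all of them had been counted. Of the 17 regions, 4 held TACGTG, and in 2 the motif was followed by CTACT. Regions were not screened for repeated sequence, here or in the sets printed above, and its part in this spacing was not tested. The 3 strongest were at SMIM3, JPT2 and CTBP2, and their sequences are given with CACAG also in capitals.
SMIM3 intron, chr5:150161499-150161543, plus strand: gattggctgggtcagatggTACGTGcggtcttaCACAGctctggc
JPT2, 3.90 kb downstream of a start, chr16:1739307-1739351, plus strand: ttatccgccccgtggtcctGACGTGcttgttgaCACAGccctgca
CTBP2 intron, chr10:126772303-126772347, minus strand: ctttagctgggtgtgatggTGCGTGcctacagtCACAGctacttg

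The shCNT and shBMAL1 HIF2α pileups were 28 and 17 at SMIM3, 22 and 17 at JPT2, and 26 and 11 at CTBP2. SMIM3 had no BMAL1 peak, JPT2 had one of 6 under shCNT, and CTBP2 had them of 6 and 4.

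The site of AP-1, the FOS and JUN dimer found at many enhancers (TGACTCA or TGAGTCA), was present in 375 regions (23.3%, 21.3 to 25.4). It was present in 23.1% of all distal regions, 16.2% of all merged regions and 4.07% of flanking windows. It did not separate the classes, being present in 22.4% of regions in both HIF2α lists and 23.5% of those in no HIF2α list. The TEAD motif GGAATG behaved alike, in 18.9% of the distal HRE regions, 19.6% of all distal regions and 9.87% of flanking windows. RUNX (AACCACA) was present in 7.64%, 8.09% and 3.60%. All motifs were searched on both strands, and a match is not a bound site.

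By position, 52.4% (49.9 to 54.8) of the regions lay in introns of protein-coding genes, 10.4% in introns of other genes and 31.0% between genes. Coding exons held 20 regions, untranslated regions 33 and noncoding exons 47. The median distance to the nearest transcript start was 7.76 kb, and 604 regions lay 1 to 5 kb away. Distal regions with neither motif were placed alike, with 50.4% in introns of protein-coding genes and a median distance of 8.98 kb. At the 1 kb limit, a region just inside was an intron of AMDHD2 (1006 bp from a start), and regions just outside were at SLC2A1 (991 bp) and BASP1 (982 bp). AMDHD2 was in both shCNT lists, with pileups of 6 for BMAL1 and 4 for HIF2α, and SLC2A1 was in both HIF2α lists with 11 and 8.

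The strongest regions of all 4 lists were led by an intron of CCN4, a secreted matricellular protein, with NDRG1, a hypoxia-induced stress gene, as the nearest protein-coding gene start at 24.8 kb. Its HIF2α pileups of 59 under shCNT and 58 under shBMAL1 ranked 9 and 2 in their lists, and its BMAL1 pileups were 7 and 5. The HIF2α fold over the local background was 40.1 under shCNT and 51.6 under shBMAL1. Pileups depend on the depth of their list, so the pair is not read as equal binding. Its BMAL1 peak stood at percentile 5.32 in the shCNT list, over a local background of 0.886, and at 53.2 in the shBMAL1 list, over 0.110. The region upstream of TGFA, the growth factor that acts through the EGF receptor, had HIF2α pileups of 55 and 40 and BMAL1 pileups of 11 and 7. Upstream of DAPK1, a kinase of cell death pathways, they were 44 and 36 for HIF2α and 8 and 7 for BMAL1.

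In both HIF2α lists alone, the intron of NMT1, an N-myristoyltransferase, had pileups of 58 under shCNT and 35 under shBMAL1. The region far upstream of CREB1, the cAMP response factor, had 29 and 43. The intergenic region whose nearest coding gene is TLR4 had 54 and 32. All 3 had a single TACGTG core, and the middle one was the higher under shBMAL1, also by percentile (97.0 and 99.8).

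Regions of a single HIF2α list were weaker. In the shCNT list alone the highest pileups were 17 in introns of SIK3 and ANO6 and 16 upstream of TANC2. In the shBMAL1 list alone they were 20 in an intron of TMEM209, 15 upstream of PDGFB, which encodes a platelet-derived growth factor chain, and 14 upstream of AGAP1.

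Among regions of BMAL1 lists alone, the EEF2K region had pileups of 25 under shCNT and 56 under shBMAL1, the PRR36 exon 15 and 37, and the ESPNL region 5 and 24. All 3 were higher in the list labelled shBMAL1. In that list alone, TRPM2 had 36, ABR 19 and ZNF778 18. In the shCNT list alone, the coding exon of BMAL1 had a pileup of 235 over a local background of 25.3, and GRK5 had 8. This exon is 1 of 14 peaks of the shCNT BMAL1 list on the BMAL1 gene, all of them overlapping coding exons, with pileups of 52 to 834 over local backgrounds of 10.2 to 87.3. On this gene the shBMAL1 BMAL1 list had 1 peak, outside the exons, and the HIF2α lists had 0. The source of these reads was not tested, so the exon is not taken as an example of BMAL1 binding, and without it the shCNT BMAL1 list alone held 89 regions.

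The HIF target lists gave the following regions within 50 kb of a start. Since pileups depend on the depth of their list, a pair of them is not read as a change in binding between shCNT and shBMAL1. Of 21 genes of glucose uptake and glycolysis, 7 had a distal HRE region and 11 had a distal region of any kind. In an intron of PKM, which encodes pyruvate kinase, the pileups were 32 under shCNT and 23 under shBMAL1 for HIF2α. The glucose transporter SLC2A3 had 28 and 17, and the lactate exporter SLC16A3 had 20 and 12 with a BMAL1 pileup of 6 under shBMAL1. Over the list's 10 regions, 5 were in the shCNT HIF2α list and 9 in the shBMAL1 HIF2α list, against 2 and 3 in the BMAL1 lists (42.3%, 57.9%, 19.2% and 41.0% of all distal HRE regions).

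Of 15 angiogenic and secreted factors, 8 had a distal HRE region, CCN4, TGFA and PDGFB among them, and 9 had any distal region. ANGPTL4, an inhibitor of lipoprotein lipase, had HIF2α pileups of 27 and 23 at its strongest region. Of the 10 regions of this list, 6 were in the shCNT and 9 in the shBMAL1 HIF2α list, and 3 in each BMAL1 list. The single region of VEGFA, the main angiogenic growth factor, was in the shBMAL1 HIF2α list alone, at percentile 31.3.

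Of 14 genes of oxygen sensing and bHLH-PAS factors, 4 had a distal HRE region and 7 had any distal region. EGLN3, a prolyl hydroxylase that marks HIF for degradation and is itself a HIF target, had 23 and 19 at its strongest region. EPAS1, which encodes HIF2α, had 11 and 5. The region near HIF1A was in the shCNT HIF2α list alone at percentile 7.52, and that of BMAL1 is the exon above.

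Of 15 genes of hypoxic stress, pH and growth, 7 had a distal HRE region and 8 had any distal region. Of their 12 distal HRE regions, 11 were in the shCNT HIF2α list and 7 in the shBMAL1 HIF2α list. All distal HRE regions stood at 42.3% and 57.9% in these lists. The CCN4 intron, whose nearest protein-coding gene start is that of NDRG1, is counted both here and among the angiogenic factors. P4HA2, a collagen prolyl hydroxylase, had pileups of 36 and 29, and PLIN2, a lipid droplet coat protein, 37 and 26. The carbonic anhydrase gene CA9 had 2 regions, both in the shCNT HIF2α list alone and the stronger at percentile 27.0.

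Of 13 clock outputs and repressors, 4 had a distal HRE region and 8 had any distal region. BHLHE40, a repressor driven by both the clock and hypoxia, had HIF2α pileups of 14 and 13. The region within 50 kb of the clock output gene DBP was in the shBMAL1 BMAL1 list alone with 8. That near the repressor NR1D1 had 6 in both BMAL1 lists and in the shCNT HIF2α list. Their nearest protein-coding genes are NTN5 and MSL1. Of 10 renal lineage factors, 3 had a distal HRE region and 5 had any distal region. ZNF395 had HIF2α pileups of 47 and 28 and BMAL1 pileups of 5 and 6. The strongest region within 50 kb of HNF4A, whose nearest protein-coding gene is TTPAL, had 18 and 12 for HIF2α and 4 for shCNT BMAL1. PAX2 had 7 in the shCNT HIF2α list alone. Of 9 AP-1 and immediate early genes, 4 had a distal HRE region and 5 had any distal region. FOSL2 had HIF2α pileups of 33 and 22. The region within 50 kb of FOSB, which lies in an intron of ERCC1, had 8 and 5 for BMAL1 and 4 for shCNT HIF2α. JUN had 7 in the shBMAL1 BMAL1 list alone. In all, each list held 0.25% to 0.74% of the distal HRE regions and 0.24% to 0.59% of all distal regions. The first share was the lower for oxygen sensing (0.43% against 0.59%) and for the clock list (0.31% against 0.40%). It was the higher for the remaining lists, by little for AP-1 genes (0.25% against 0.24%). These shares rest on 4 to 12 distal HRE regions per list and are given without intervals, so their order is not read as a result.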

How the data were processed

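The shRNA and antibody named in each title assigned the CUT&RUN libraries of A498 cells to groups, and the deposited peak lists of the 4 BMAL1 and HIF2α groups were used. Reads had been mapped to hg19 by the authors with Bowtie2 2.5.3, and peaks had been called with MACS2 2.2.9.1 after removal of duplicates (p limit 1e-05, gaps of up to 400 bp) and filtered for blacklisted stretches with bedtools 2.31.1. The control library was not given in the sources used here.

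Each peak carries the authors' fold, the linear ratio of fragments at the summit to the local background, with a pseudocount of a single fragment added to each. Significance was deposited by the authors as −log10 of the p-value and of the q-value. The deposited score column repeats the first of these on a coarser scale, and another deposited column gives the summit offset. The pileup was solved from fold and p-value, which gave whole numbers within 0.001 for 100% of peaks in each list. Totals of fragments are unknown, so depth is described by pileup and background. PCR copies are not independent molecules, and intervals cover counting error only.

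Peaks overlapping by at least 1 bp were merged, and the summit was that of the peak with the highest −log10 p. Transcript starts (254410) were those of GENCODE release 44 on GRCh37, and windows of 100 bp to either side were read from GRCh37. A region is named by its nearest protein-coding gene or its host, and in the gene lists by the listed gene within 50 kb. Percentiles are ranks by −log10 p within the whole list. Python 3.11.15, pandas 2.3.3, scipy 1.17.1 and pysam 0.24.0 were used, and merging, motif counting and pileup recovery were tested on simulated data. Without replicate lists no test between groups was made. Named regions are the 3 strongest of each presence class, up to 3 genes of each list with the strongest region within 50 kb, those nearest the 1 kb limit and those with most cores, and some of these are not reported here. The regions of the chains and of the ancillary motif, and VEGFA, HIF1A and CA9, were chosen after their values were seen. The members, lists and comparisons were chosen with earlier results of these data known. The alternatives concerned the window, the distance, the annotation, peak limits, merging, presence and the motifs.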

Additional observations from a re-analysis of the deposited data

How the results depend on the processing

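The 12 quantities compared across settings gave 144 values, of which 106 stayed within the reported interval (for the number of regions, within 1.5 times), 37 left it in the same direction and 1 changed sign. The lists carry no replicate, so no list could be left out. No paired analysis was possible because each group has 1 peak list and no test was made. Every alternative planned was run, and the pileup limit and the settings for TACGTG were added after the data had been seen. The sign changed for the BMAL1 share of HIF2α regions not found again minus those found again, which was 0.35 points with −log10 p of at least 8. With that limit the shares were 47.3% in shCNT HIF2α, 60.4% in shBMAL1 HIF2α, 15.1% in shCNT BMAL1 and 33.1% in shBMAL1 BMAL1, the HIF2α share found again was 73.8% and the TACGTG difference 54.7 points. With 50 bp to either side there were 926 regions, and the differences in the HIF2α share found again were 11.1 against regions with neither motif and 9.87 for TACGTG, with a TACGTG share of 45.0% in both HIF2α lists and a difference of 38.5. With 200 bp the shares were 37.4%, 52.6% and 44.4% in shCNT HIF2α, shBMAL1 HIF2α and shBMAL1 BMAL1. With ACGTG alone as the core there were 1035 regions, at 52.8%, 70.2%, 16.1% and 31.8% in the order of the lists above. Their share found again was 76.2%, the differences in it were 35.0 and 7.76, and the TACGTG share was 64.7%. That share was 62.0% when CACGTT also removed a region. Beyond 5 kb there were 1007 regions and 72.7% found again. Lists of equal length gave 50.9% for shCNT HIF2α, 23.2% and 27.5% for shCNT and shBMAL1 BMAL1, and 40.3% of BMAL1 regions found again. A peak required to cover the summit gave 54.6% for shBMAL1 HIF2α, 16.0% and 36.4% for BMAL1, and 41.6% of BMAL1 regions found again. A pileup of at least 5 gave 51.6% for shCNT HIF2α and 21.5% and 31.5% for BMAL1. The causes of these shifts were not tested. With median pileups of 5 to 8, the absence of a peak is not the absence of binding.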

Other observations

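Chaining distal HRE regions with summits within 50 kb of each other gave 1171 regions alone and 440 in chains. Of these chains, 10 held 4 or more regions. No such count over all distal regions is given here, so the chains are not read as a trait of distal HRE regions. The longest chain held 7 regions around LIF, the leukaemia inhibitory factor, over 70.9 kb. Of these, 4 were in the shCNT HIF2α list, 6 in the shBMAL1 HIF2α list, 3 in the shCNT BMAL1 list and 5 in the shBMAL1 BMAL1 list, and 2 held TACGTG. The 2 with TACGTG were the strongest, with HIF2α pileups under shCNT and shBMAL1 of 27 and 16 at the one with no BMAL1 peak and of 23 and 15 at the other, where BMAL1 pileups were 10 in both lists. The weakest had a pileup of 3 in the shBMAL1 HIF2α list alone.

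EGLN3, the prolyl hydroxylase gene, had 4 regions over 92.0 kb, of which 4 were in the shBMAL1 HIF2α list and 2 in the shCNT HIF2α list. The shCNT and shBMAL1 HIF2α pileups were 23 and 19 at the region with TACGTG, and 22 and 16 at one without it, which also had a shCNT BMAL1 pileup of 4. The other two had pileups of 10 and 5 under shBMAL1 and no shCNT peak. DAPK1 had 4 regions over 68.9 kb, all in the shBMAL1 HIF2α list and 3 in the shCNT HIF2α list, and only the strongest had BMAL1 peaks. In contrast, the 4 regions around ZNF778 and SLC22A31, over 54.6 kb, had no HIF2α peak, with 3 in the shCNT BMAL1 list and 2 in the shBMAL1 BMAL1 list.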
